A study of Mus musculus with 8 samples.

Results

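This account follows 50 genes of mitosis through a time course of mouse leukaemia cells in which doxycycline induces the transcription factor KLF4. The 50 genes, the spindle, centromere, cyclin and mitotic kinase genes of G2 and M phase, were taken from a fixed list of names. Their symbols were matched to the Ensembl identifiers of the count files through GENCODE mouse release M21, and all 50 were found among the 47069 gene rows. The leukaemia cells carried MLL-AF9, a fusion oncogene of acute myeloid leukaemia, and were sorted as GFP-positive cells from leukaemic mice. Their strain is given as C57BL/7 and their tissue as bone marrow, and the line is named TetO-Klf4-AML, TetO being the promoter on which doxycycline acts. The 8 libraries form 4 groups of 2, labelled 0h, 6h, 12h and 24h, and all 8 share the fusion and the transgene. The labels do not say what event the hours count from, whether animals were pooled, or whether replicates came from separate mice. The p-values therefore rest on scatter among libraries alone, and that scatter may be purely technical. Doxycycline-treated cells without the transgene were not analysed here, so time and agent cannot be told apart from KLF4.

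A cell enters mitosis when CDK1, bound to cyclin A or cyclin B, is freed of its inhibitory phosphates by CDC25 phosphatases. The Polo and Aurora kinases then help to build the spindle, kinesin motors move its microtubules, and kinetochores tie the chromosomes to them. Once every kinetochore is attached, the spindle checkpoint releases CDC20, which turns on the anaphase-promoting complex, and cyclin B and securin are destroyed. Most of these genes are transcribed late in the cell cycle, so that their RNA is abundant in populations that divide.

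Libraries held 20394546 to 26041347 gene counts. Values are in CPM, a gene's count scaled to the size of its library, after TMM scaling, which sets the typical gene equal between libraries. Klf4, the induced gene, stood at 2.71 and 4.42 CPM (0h), 152 and 151 (6h), 114 and 111 (12h), and 76.9 and 78.8 (24h), so the induced libraries carried high Klf4 and the 0h libraries did not. Of 14 leukaemia and myeloid progenitor markers, all were detected, with a summed level of 4106 and 4158 CPM at 0h and 3624 and 3549 at 24h. The 9 T and NK cell genes summed to at most 0.276 CPM in any library, and Pax5, Ms4a1, Cd3e, Cd3g, Trbc2, Ncr1, Car1 and Kdr had 0 counts in all 8. Other genes of these marker lists were expressed. The filter on low counts kept 2 of 7 B cell, 5 of 11 erythroid and 1 of 7 stroma and endothelium genes. The 2 B cell genes had log2 fold changes of 1.90 (higher) and -0.56 (lower) at 24h against 0h. The 9 late neutrophil genes summed to 101 and 108 CPM (0h), 95.6 and 106 (6h), 115 and 106 (12h), and 144 and 144 (24h), led by Ngp, S100a8 and S100a9, while Retnlg stayed below 0.1 CPM on average at every time. They did not all move with the sum. At 24h against 0h, 6 of the 8 tested were higher and 2 lower, with log2 fold changes from -1.27 to 1.04. The share of fragments that fell in no gene feature was 5.25% to 5.70% of all fragments (0h), 5.81% to 6.60% (6h), 8.31% to 8.95% (12h) and 9.04% to 9.27% (24h). The part of these shifts in the results was not tested.

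All 50 genes passed the filter on low counts, and each had at least 100 counts in every library. Together they summed to 6679 and 6612 CPM (0h), 6816 and 6660 (6h), 7563 and 7468 (12h), and 7168 and 7365 (24h). The summed level at 12h was 1.13 times that at 0h, and at 24h it was 1.09 times that at 0h. In bulk RNA, a change in the share of cells in mitosis and a change in the RNA per cell cannot be told apart. At 12h 27 of the 50 genes were higher than at 0h (54.0%), 2 were lower and 21 did not pass the test. Of all 14263 genes tested at 12h, 43.7% were called, 22.1% higher and 21.6% lower. At 24h 23 genes were higher (46.0%) and 6 lower (12.0%), beside 26.1% and 24.8% of all genes (50.9% together). At 6h only 10 of the 50 were called, 7 higher and 3 lower, where 18.3% of all genes were called, 9.74% higher and 8.58% lower, so the mitotic genes' share at 6h was near the background. That split was 9 higher and 1 lower with library totals alone, and 3 higher and 4 lower with the centred GC and length correction. Over the whole course 35 of the 50 were called, beside 52.8% of all genes. The background genes were not matched to the 50 by count level, on which the power to call small changes depends. Its part in the difference between these shares was not tested. The median log2 fold change of the 50 was -0.01 at 6h, 0.13 at 12h and 0.09 at 24h, where the median of all tested genes was 0.00, 0.00 and 0.02.

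These were small changes. A gene was called where the quasi-likelihood F test of edgeR gave an adjusted p under 0.05, with Benjamini-Hochberg adjustment across all genes tested. Among called members the median size on the log2 scale was 0.27 at 12h and 0.28 at 24h, against 0.31 and 0.36 among all called genes. Cdc25b at 24h was the sole estimate of at least 1.5-fold. When edgeR tested against a fold of 1.5 rather than against no change, 0 of the 50 were called at 6h, 12h or 24h, and at an unadjusted p under 0.05 the counts were 0, 0 and 1. Of the 27 genes higher at 12h, 20 kept the call under all 19 other settings that test against no change, and of the 23 higher at 24h, 18 did. The 6h count was less steady, at 5 without 0h replicate 1, 2 without 0h replicate 2, 3 without 6h replicate 1 and 5 with DESeq2. Cenpe was the 1 gene called at 6h under every one of these settings.

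**Figure D1:**
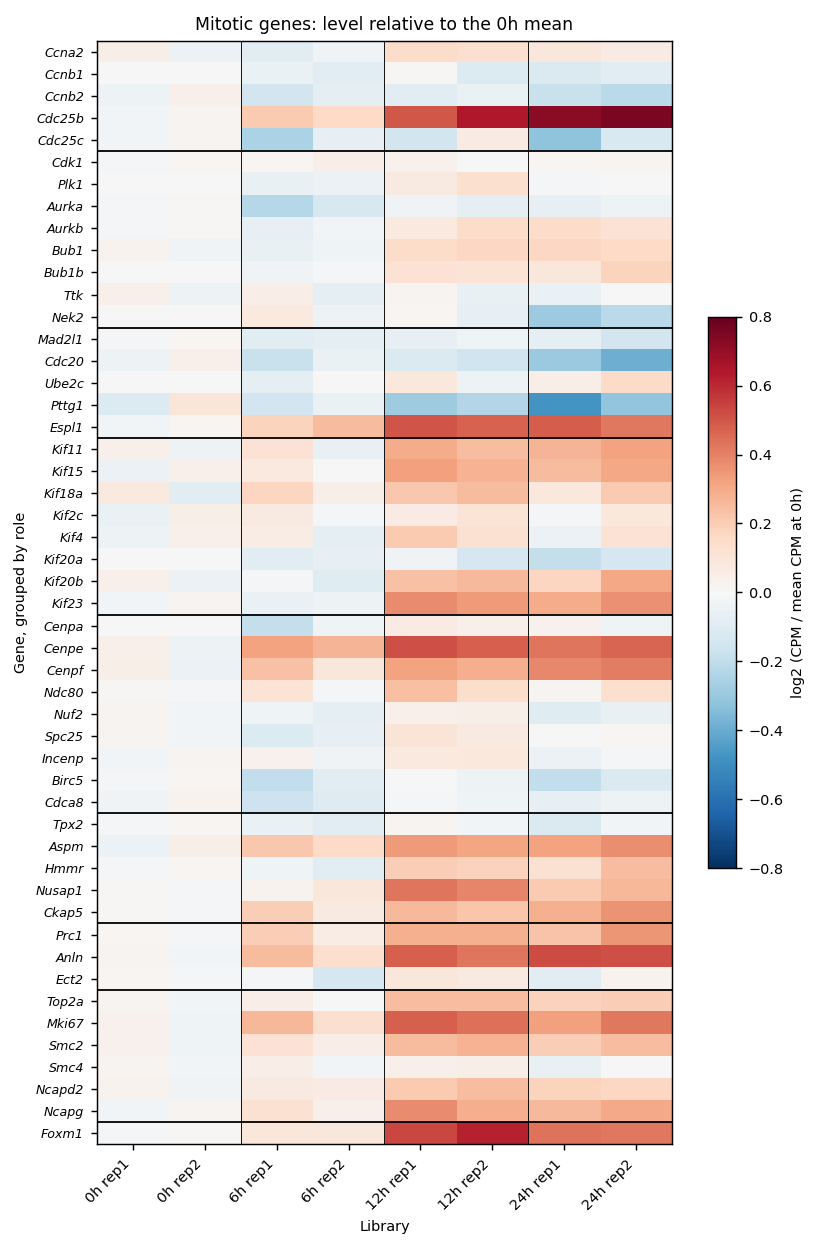
Each row is a mitotic gene and each column a library, and colour gives the log2 ratio of its CPM to the gene's mean at 0h, with black lines between role groups. Most of the red lies at 12h and 24h, deepest in Cdc25b, Foxm1, Cenpe, Anln, Mki67 and Espl1, while Cdc20 and Pttg1 turn blue.

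**Figure D2:**
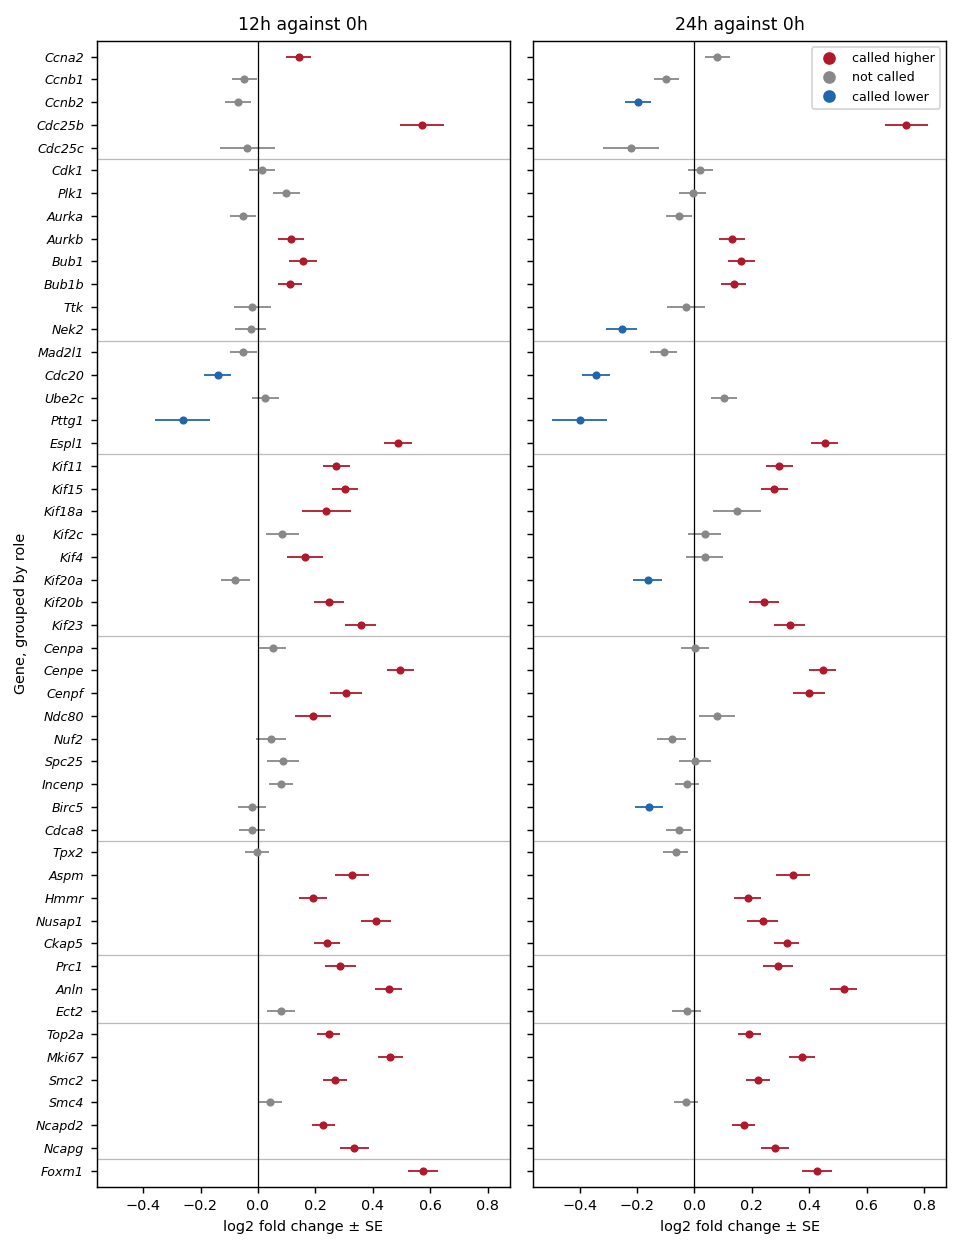
Points are log2 fold changes against 0h from the fit of all 8 libraries, with bars of 1 SE, at 12h (left) and 24h (right), coloured by call. At 12h 27 genes are red and 2 blue, and at 24h 23 are red and 6 blue.

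Promoters of mitotic genes are known for a short element named CHR, on which the DREAM and MuvB complexes act, and for CCAAT boxes bound by NF-Y. The promoter table from RefSeq (build GRCm38.p6, 250 bases before to 50 after the start) held 42 of the 50 genes. The core of the element, TTTGAA on either strand, was found in 31 of the 42 (73.8%), in 18.1% of all 27025 promoters and in 11.9% of the 10090 promoters of tested genes. Within 50 bases of the start it was present in 28 of the 42 (66.7%), and in 2.91% of promoters of tested genes. CCAAT on either strand was present in 31 of 42 (73.8%), beside 38.9% of promoters of tested genes and 37.9% of all. A KLF core, CACCC on either strand, was present in 20 of 42 (47.6%), beside 62.7% and 56.7%. The GC box GGGCGG was present in 33 of 42 (78.6%), beside 63.5% and 35.9%. In 7 cases matches of 2 of these motifs overlapped. A match is a run of letters and was not tested as a binding site.

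The element's core is shown here for genes that rose, did not pass the test or fell, with 10 bases on each side, read 5′ to 3′ along the gene with the core in capitals. The first 6 belong to genes higher at 12h and 24h, the next 3 to genes called at neither time, and the last 2 to genes lower at 24h. The Anln piece also holds a core on the other strand, which is left in lower case.
Mki67, chr7:135716462-135716487, minus strand: gccgttttggTTTGAAtcgggcgggc
Anln, chr9:22389163-22389188, minus strand: aaattcaaatTTTGAAcggccgtggt
Espl1, chr15:102296256-102296281, plus strand: actagggataTTTGAAaggaggtgct
Kif23, chr9:61946782-61946807, minus strand: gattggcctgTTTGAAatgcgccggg
Cenpf, chr1:189688069-189688094, minus strand: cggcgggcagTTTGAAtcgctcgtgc
Prc1, chr7:80294436-80294461, plus strand: tctggctcggTTTGAAttccgcgggg
Cdk1, chr10:69352912-69352937, minus strand: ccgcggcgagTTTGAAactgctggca
Plk1, chr7:122159455-122159480, plus strand: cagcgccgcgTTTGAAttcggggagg
Aurka, chr2:172370523-172370548, minus strand: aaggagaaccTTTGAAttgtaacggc
Cdc20, chr4:118437346-118437371, minus strand: acagttgggtTTTGAAggagccaatg
Ccnb2, chr9:70421535-70421560, minus strand: cggcgcggtaTTTGAAtcgcggaccg
The same 6 letters thus stand in promoters of all 3 kinds. Of the 42 genes, the core was present in 19 of 24 that were higher at 12h, 1 of 2 that were lower and 11 of 16 that were not called. At 24h the counts were 17 of 21, 2 of 5 and 12 of 16. The KLF core was present in 12 of the 24 genes higher at 12h and in 7 of the 16 not called.

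The 120 bases before the start are shown for 1 gene that rose (Top2a), 1 that was not called (Cdk1) and 2 that fell (Cdc20 and Ccnb2), with CHR cores and CCAAT boxes of either strand in capitals. On the other strand these read TTCAAA and ATTGG.
Top2a, chr11:99024190-99024309, minus strand: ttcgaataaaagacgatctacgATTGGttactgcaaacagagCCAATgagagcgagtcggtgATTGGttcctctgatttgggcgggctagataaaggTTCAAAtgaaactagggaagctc
Cdk1, chr10:69352913-69353032, minus strand: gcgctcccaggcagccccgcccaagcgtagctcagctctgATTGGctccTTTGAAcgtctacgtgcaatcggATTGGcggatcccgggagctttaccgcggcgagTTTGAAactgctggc
Cdc20, chr4:118437344-118437463, minus strand: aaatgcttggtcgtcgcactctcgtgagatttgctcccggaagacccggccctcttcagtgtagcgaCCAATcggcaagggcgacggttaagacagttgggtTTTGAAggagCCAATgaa
Ccnb2, chr9:70421555-70421674, minus strand: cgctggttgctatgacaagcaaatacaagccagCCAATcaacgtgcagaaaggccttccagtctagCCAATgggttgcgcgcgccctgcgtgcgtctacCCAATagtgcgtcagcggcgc
Top2a carries 3 CCAAT boxes in this stretch, Ccnb2 carries 3, and Cdk1 and Cdc20 carry 2 each. The spaced CCAAT boxes of Ccnb2 lie at -87, -54 and -21 from the start, and its 2 CHR cores lie at -167 and at 5, of which the second is printed above.

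Foxm1 (ENSMUSG00000001517; build mm10, chr6:128362967-128376146, plus strand) encodes the transcription factor that works with MuvB to switch on G2 and M genes. It was measured at 59.9 and 61.0 CPM (0h), 64.4 and 64.4 (6h), 87.5 and 92.5 (12h), and 81.7 and 80.9 (24h). Both 12h libraries and both 24h libraries lay above all 4 earlier ones, and the 6h libraries stood just above 0h. Foxm1 rose 1.49-fold at 12h (log2 fold change 0.57 ± 0.05 (SE), adjusted p = 1.6e-11) and 1.34-fold at 24h (0.43 ± 0.05, adjusted p = 1e-08). Most of the gain came between 6h and 12h, at 0.48 ± 0.05 (adjusted p = 4.4e-09), and the 6h value of 0.09 ± 0.05 did not pass (adjusted p = 0.26). Each SE is derived from the F statistic of its test, as the size of the log2 fold change over the root of F.

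Cyclins and CDC25 phosphatases did not move together. Cdc25b (chr2:131186949-131198497, plus strand), a phosphatase that activates CDK1 at entry into mitosis, had the largest log2 fold change of the 50 genes at 24h. It stood at 19.9 and 20.5 CPM (0h), 23.4 and 22.6 (6h), 28.6 and 31.6 (12h), and 33.4 and 34.1 (24h). Each time point lay wholly above the time point before it, and the change was 0.57 ± 0.08 at 12h (adjusted p = 1.4e-07) and 0.74 ± 0.07 at 24h (1.67-fold, adjusted p = 2e-10). Against a fold of 1.5, its 24h value had an adjusted p of 0.085. Cdc25c, its relative, had 16.9 and 17.5 CPM (0h), 14.5 and 16.4 (6h), 15.5 and 18.1 (12h), and 13.8 and 15.8 (24h), and none of its differences from 0h passed, the 24h value being -0.22 ± 0.10 (adjusted p = 0.056).

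Ccna2, the cyclin of S phase and G2 (chr3:36564865-36572150, minus strand), stood at 183 and 172 CPM (0h), 167 and 174 (6h), 197 and 195 (12h), and 189 and 186 (24h). The 12h libraries were the highest, and Ccna2 rose by 0.14 ± 0.04 at 12h (adjusted p = 0.0069), a call lost without 0h replicate 2 (adjusted p = 0.21) or 12h replicate 1 (adjusted p = 0.064). The 24h value of 0.08 ± 0.04 did not pass (adjusted p = 0.12). Ccnb1 (chr13:100778650-100786570, minus strand) encodes cyclin B1, the main partner of CDK1, and had 209 and 209 CPM (0h), 202 and 196 (6h), 211 and 194 (12h), and 194 and 197 (24h). Its 24h libraries lay below both 0h libraries, but the difference of -0.10 ± 0.04 did not pass (adjusted p = 0.055). Ccnb2 (chr9:70407692-70421547, minus strand), the cyclin whose promoter is shown above, had 149 and 157 CPM (0h), 138 and 146 (6h), 144 and 147 (12h), and 135 and 132 (24h). The 24h libraries were the lowest of the 8. Ccnb2 fell by 0.20 ± 0.04 at 24h (adjusted p = 0.00037), and this direction did not hold in every fit. With offsets that remove each library's trend with GC content and exon length the 24h value was 0.03 (adjusted p = 0.47) and the 12h value turned from -0.07 ± 0.04 to 0.12 (adjusted p = 0.011). When that correction also centred the mean gene, the 24h value was -0.01 (adjusted p = 0.91).

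The 8 mitotic kinases summed to 839 and 837 CPM at 0h and to 875 and 873 CPM at 12h, or 1.04 times the 0h level. Of these genes 3 were higher at 12h and 3 at 24h (37.5% each, beside 22.1% and 26.1% of all genes). Nek2 was lower at 24h (12.5%, beside 24.8%), and the rest did not pass at those times. Cdk1 (chr10:69335146-69352938, minus strand), the kinase that drives entry into mitosis, had 125 and 128 CPM (0h), 128 and 131 (6h), 129 and 126 (12h), and 128 and 129 (24h). These 8 values span a narrow range, and the difference at 24h was 0.02 ± 0.04 (adjusted p = 0.72). Plk1 (chr7:122159439-122169873, plus strand), the Polo-like kinase of spindle poles and kinetochores, had 105 and 106 CPM (0h), 101 and 102 (6h), 111 and 115 (12h), and 105 and 105 (24h). Its 12h libraries were the highest, above 6h by 0.15 ± 0.05 (adjusted p = 0.015), and its 24h libraries were back at the 0h level (-0.01 ± 0.05, adjusted p = 0.92). The rise of Plk1 from 6h to 12h was lost without 6h replicate 1 (adjusted p = 0.052), without 12h replicate 2 (adjusted p = 0.2) and with DESeq2 (adjusted p = 0.055).

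The Aurora kinases differed in their course. Aurka (chr2:172356190-172370535, minus strand), which acts at centrosomes, had 125 and 127 CPM (0h), 108 and 115 (6h), 124 and 119.8 (12h), and 121 and 122 (24h). Its 6h libraries were the lowest, a fall of 0.18 ± 0.05 (adjusted p = 0.0051) that was lost without 0h replicate 2 (adjusted p = 0.069) or 6h replicate 1 (adjusted p = 0.086), and by 24h the difference was -0.05 ± 0.05 (adjusted p = 0.34). Aurkb (chr11:69045647-69051664, plus strand), the kinase of the chromosomal passenger complex, had 114 and 115 CPM (0h), 109.6 and 113 (6h), 122 and 127 (12h), and 127 and 124 (24h). The 12h and 24h libraries overlapped each other and lay above those of 0h and 6h. Against 0h the differences were 0.12 ± 0.05 at 12h (adjusted p = 0.038) and 0.13 ± 0.05 at 24h (adjusted p = 0.016). DESeq2 called neither (adjusted p = 0.12 and adjusted p = 0.095), and single libraries decided both. At 24h the adjusted p was 0.11 when 0h replicate 1 was left out, 0.077 for 0h replicate 2 and 0.097 for 24h replicate 1. At 12h it was 0.17, 0.13 and 0.33 when 0h replicate 1, 0h replicate 2 and 12h replicate 2 were left out.

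Among the checkpoint kinases, Bub1, which marks kinetochores, had 89.9 and 86.4 CPM (0h), 84.6 and 86.0 (6h), 97.5 and 99.1 (12h), and 99.1 and 98.4 (24h). Its 12h and 24h libraries lay above the other 4, and it rose by 0.16 ± 0.05 at 12h (adjusted p = 0.0071) and 0.16 ± 0.05 at 24h (adjusted p = 0.0041). Without 0h replicate 2 both calls were lost (adjusted p = 0.13 and 0.095), and without 12h replicate 2 the 12h call was lost (adjusted p = 0.074). Its relative Bub1b, the gene of BUBR1, rose at 12h by 0.11 ± 0.04 (adjusted p = 0.032), a call lost in 6 of the 19 other settings, and by 0.14 ± 0.04 at 24h (adjusted p = 0.0076; 0.072 without 0h replicate 2 and 0.17 without 24h replicate 2). Ttk, which starts the checkpoint signal as MPS1, differed from 0h by -0.02 ± 0.07 at 12h and -0.03 ± 0.07 at 24h, and neither passed (adjusted p = 0.84 and 0.73). Nek2 (chr1:191821444-191833050, plus strand), a kinase that helps centrosomes to part, had 74.2 and 73.6 CPM (0h), 77.8 and 71.8 (6h), 74.6 and 70.6 (12h), and 60.3 and 63.7 (24h). Both 24h libraries lay below the other 6, a fall of 0.25 ± 0.05 against 0h (adjusted p = 0.00018) and of 0.23 ± 0.05 against 12h (adjusted p = 0.0057). Against 12h the call was lost without 12h replicate 1 (adjusted p = 0.16) or 24h replicate 1 (adjusted p = 0.083).

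**Figure D3:**
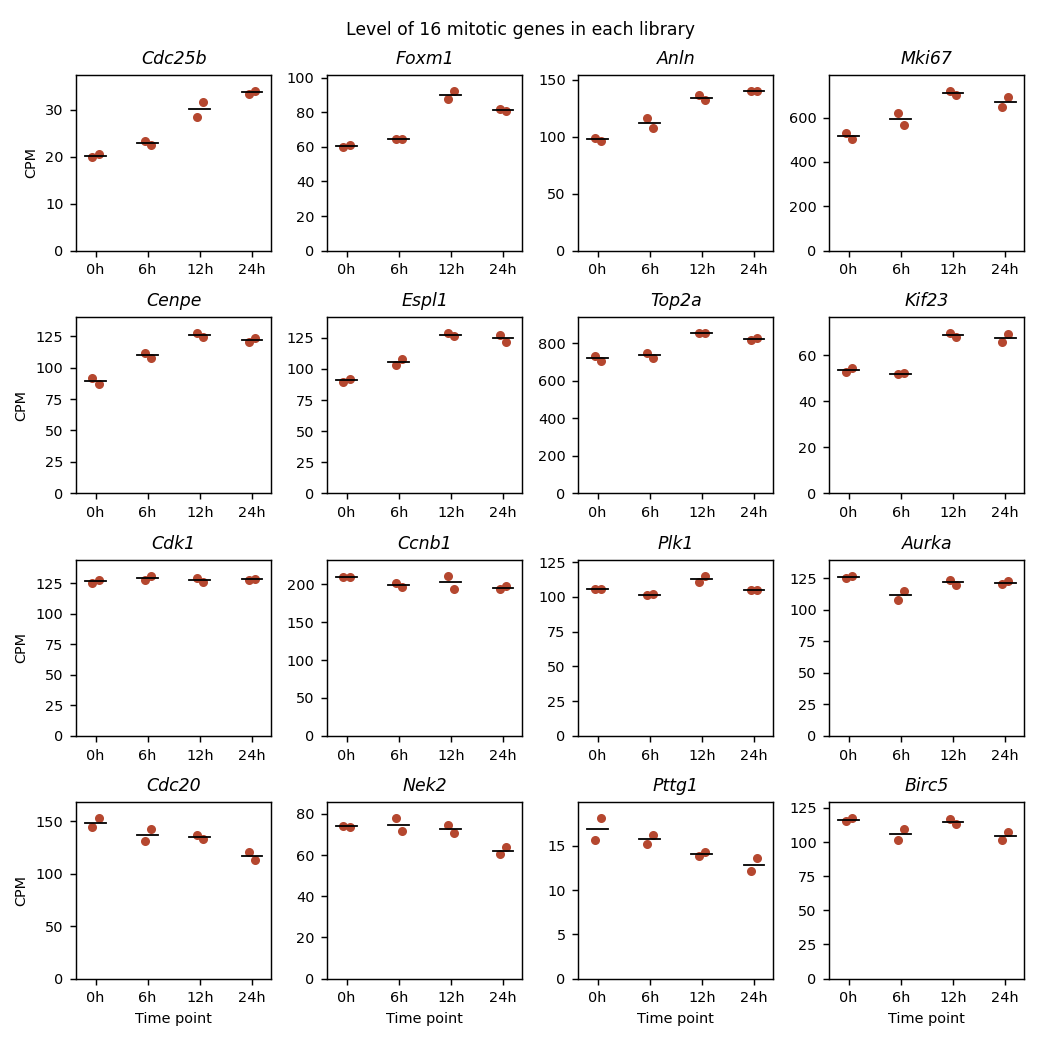
Points are CPM in each library for 16 mitotic genes, bars are the mean of the 2 libraries of a time point, and each vertical axis starts at 0. The upper 8 genes are higher at 12h and 24h, the third row holds 4 genes that are not called at 12h or 24h, and the lowest row holds 4 that are lower at 24h.

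The genes that time the start of anaphase split in opposite directions. Espl1 (chr15:102296266-102324357, plus strand) encodes separase, the protease that cuts cohesin, and had 89.8 and 92.1 CPM (0h), 103 and 108 (6h), 129 and 126 (12h), and 127 and 122 (24h). Every later library lay above both 0h libraries, and Espl1 rose by 0.22 ± 0.05 at 6h (adjusted p = 0.0011), 0.49 ± 0.05 at 12h (adjusted p = 1.2e-10) and 0.45 ± 0.05 at 24h (adjusted p = 3.5e-10). Its 6h rise was lost with the GC and length correction (adjusted p = 0.21). Pttg1 (chr11:43420250-43426251, minus strand) encodes securin, the inhibitor of separase, and went the other way with 15.7 and 18.1 CPM (0h), 15.2 and 16.2 (6h), 13.9 and 14.3 (12h), and 12.1 and 13.6 (24h). Both 24h libraries lay below both 0h libraries, a fall of 0.40 ± 0.10 (adjusted p = 0.00073) that did not pass with the GC and length correction (-0.18, adjusted p = 0.11). At 12h Pttg1 stood at -0.26 ± 0.10 (adjusted p = 0.026), which was lost in 7 of the 19 other settings.

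Cdc20 (chr4:118432901-118437352, minus strand), the activator of the anaphase-promoting complex, had 144 and 153 CPM (0h), 131 and 143 (6h), 137 and 133 (12h), and 121 and 113 (24h). Its 24h libraries were the lowest of the 8, and the fall at 24h was 0.34 ± 0.05 (adjusted p = 2.2e-07), a call that held in all 19 other settings. The fall of 0.14 ± 0.05 at 12h (adjusted p = 0.017) was lost with DESeq2 (adjusted p = 0.057), with library totals alone (adjusted p = 0.22), without 0h replicate 2 (adjusted p = 0.21) and without 12h replicate 2 (adjusted p = 0.14). Elovl1 overlaps Cdc20 on the opposite strand with 20577 counts over the 8 libraries beside 24973 for Cdc20, and since the strand setting of the counting is not given, their reads may be partly mixed. Ube2c, the E2 enzyme that works with this complex, stood at 0.10 ± 0.05 at 24h (adjusted p = 0.061), and Mad2l1, the checkpoint protein that holds CDC20, at -0.11 ± 0.05 (adjusted p = 0.054). Neither passed.

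Kinesins are the motor proteins of the spindle. Of the 8 in this role group, 6 rose at 12h (beside 22.1% of all genes), and at 24h 4 were higher (beside 26.1%), Kif20a was lower and 3 did not pass. At 6h 0 of the 8 were called by edgeR or by DESeq2, and 0 had an unadjusted p under 0.05. Kif11 (chr19:37376403-37421859, plus strand), the motor that pushes spindle poles apart, had 212 and 199.6 CPM (0h), 223 and 198 (6h), 252 and 244 (12h), and 248 and 257 (24h). Its 12h and 24h libraries lay above the other 4, a rise of 0.27 ± 0.05 (adjusted p = 1.2e-05) and 0.29 ± 0.05 (adjusted p = 2e-06). Kif23 (chr9:61915905-61946774, minus strand), the motor of the central spindle in cytokinesis, rose most within this group of 8, with 52.8 and 54.3 CPM (0h), 51.6 and 52.0 (6h), 69.5 and 67.8 (12h), and 65.9 and 69.1 (24h). The step lay between 6h and 12h, at 0.41 ± 0.05 (adjusted p = 7.4e-07), and the difference from 0h was 0.36 ± 0.05 at 12h (adjusted p = 1.5e-06) and 0.33 ± 0.05 at 24h (adjusted p = 3.2e-06).

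Kif15, which backs up Kif11, rose by 0.30 ± 0.05 at 12h (adjusted p = 1.6e-06) and 0.28 ± 0.05 at 24h (adjusted p = 4.2e-06). Kif20b, a motor of late cytokinesis, rose by 0.25 ± 0.05 and 0.24 ± 0.05 (adjusted p = 0.00018 and 0.00017). Kif18a, which dampens chromosome movement, and the chromokinesin Kif4 were higher at 12h alone among the comparisons with 0h, by 0.24 ± 0.08 (adjusted p = 0.02) and 0.16 ± 0.06 (adjusted p = 0.033), and each call was lost in 5 of the 19 other settings, DESeq2 among them. Kif2c, a microtubule depolymerase of the centromere, stood at 0.08 ± 0.06 and 0.04 ± 0.06 and did not pass (adjusted p = 0.25 and 0.63). Kif20a, a motor that carries the passenger complex to the central spindle, had 87.7 and 87.9 CPM (0h), 82.4 and 83.9 (6h), 86.2 and 80.0 (12h), and 77.0 and 80.0 (24h). Its 24h libraries were the lowest, and it fell by 0.16 ± 0.05 at 24h (adjusted p = 0.0071), a call lost with library totals alone (adjusted p = 0.1) and without 24h replicate 1 (adjusted p = 0.065). Kif20a overlaps Cdc23 on the opposite strand, with 15942 counts for Cdc23 beside 15492, so this value too may hold reads of its neighbour. Gene spans on opposite strands also overlap for Kif4 with Pdzd11 (5194 counts beside 9710), Ncapg with Lcorl (4831 beside 16729), Ccna2 with Exosc9 (7844 beside 34232) and Nusap1 with Oip5 (2778 beside 12993). They do so too for Prc1 with Rccd1 (2989 beside 15302), Kif18a with Mettl15 (561 beside 3949) and Cdca8 with 9930104L06Rik (2994 beside 26801). Some other members have overlapping genes with fewer counts. All these counts are of whole genes. The length of shared exon was not measured, so they do not give the amount of any mixing.

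Of the 9 centromere, kinetochore and passenger complex genes, 3 rose at 12h (33.3%, beside 22.1% of all genes). At 24h 2 were higher (22.2%, beside 26.1% of all genes) and Birc5 was lower (11.1%, beside 24.8%), so these shares did not exceed the background. Cenpe (chr3:135212537-135273611, plus strand), the kinesin that carries chromosomes to the spindle equator, had 91.8 and 86.8 CPM (0h), 111 and 108 (6h), 127 and 124 (12h), and 120.2 and 123 (24h). All 6 later libraries lay above both 0h libraries, at 0.30 ± 0.05 at 6h (adjusted p = 1.4e-05), 0.50 ± 0.05 at 12h (adjusted p = 7.8e-11) and 0.45 ± 0.05 at 24h (adjusted p = 5e-10). Cenpf (chr1:189640606-189688086, minus strand), a partner of Cenpe, had 56.9 and 53.3 CPM (0h), 64.8 and 58.7 (6h), 68.7 and 67.4 (12h), and 71.9 and 73.2 (24h). It rose by 0.31 ± 0.06 at 12h (adjusted p = 3.5e-05) and 0.40 ± 0.06 at 24h (adjusted p = 2.3e-07), while its 6h call at 0.16 ± 0.06 (adjusted p = 0.044) was lost in 9 of the 19 other settings.

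Of the NDC80 complex, which grips microtubules, Ndc80 stood at 0.19 ± 0.06 at 12h (adjusted p = 0.012; 0.09 without 0h replicate 2, 0.18 without 12h replicate 1 and 0.08 with DESeq2). Its partners Nuf2 and Spc25 stood at 0.05 ± 0.05 and 0.09 ± 0.06 and did not pass against 0h (adjusted p = 0.51 and 0.22). Cenpa, the histone variant that marks centromeres, differed from 0h by 0.05 ± 0.05 at 12h and 0.00 ± 0.05 at 24h (adjusted p = 0.42 and 0.97). The chromosomal passenger complex, which corrects faulty attachments, has 3 other listed genes beside Aurkb. Birc5 (chr11:117849251-117855743, plus strand), the gene of survivin, had 115 and 117 CPM (0h), 102 and 109.7 (6h), 117 and 113 (12h), and 101 and 107 (24h). Its 6h and 24h libraries lay below both 0h libraries. The 6h fall of 0.14 ± 0.05 (adjusted p = 0.044) was lost in 13 of the 19 other settings. It was lower at 24h by 0.16 ± 0.05 (adjusted p = 0.0058), a call lost with the GC and length correction (adjusted p = 0.25), with library totals alone (adjusted p = 0.098), without 0h replicate 2 (adjusted p = 0.052) and without 24h replicate 1 (adjusted p = 0.088). Cdca8, the gene of borealin, had 146 and 152 CPM (0h), 133 and 139 (6h), 148 and 145 (12h), and 142 and 145 (24h). Its 6h libraries were the lowest, a fall of 0.13 ± 0.04 (adjusted p = 0.034) that was lost in 9 of the 19 other settings, and the 24h value did not pass (-0.05 ± 0.04, adjusted p = 0.31). Incenp stood at -0.03 ± 0.04 at 24h (adjusted p = 0.61).

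Of the 5 spindle assembly factors, 4 were higher at 12h and at 24h (80.0%, beside 22.1% and 26.1% of all genes). Nusap1 (chr2:119618298-119651244, plus strand), which bundles spindle microtubules near chromosomes, had 61.3 and 60.3 CPM (0h), 62.1 and 64.7 (6h), 81.9 and 79.8 (12h), and 70.1 and 73.1 (24h). The 12h libraries were the highest, with a rise of 0.41 ± 0.05 (adjusted p = 4.9e-08), and it was 0.24 ± 0.05 above 0h at 24h (adjusted p = 0.00027). Aspm (chr1:139454772-139494091, plus strand), a spindle pole protein, had 40.5 and 43.3 CPM (0h), 48.6 and 46.5 (6h), 53.0 and 52.2 (12h), and 52.3 and 54.1 (24h). All later libraries of Aspm lay above 0h, by 0.33 ± 0.06 at 12h (adjusted p = 2.6e-05) and 0.34 ± 0.06 at 24h (adjusted p = 7.5e-06). The 6h rises of Aspm (0.18 ± 0.06, adjusted p = 0.033) and Ckap5 (0.14 ± 0.04, adjusted p = 0.029) were lost in 6 and 5 of the 19 other settings, DESeq2 among them. Ckap5, a microtubule polymerase, rose by 0.32 ± 0.04 at 24h (adjusted p = 1.7e-07), and Hmmr, a spindle protein that also binds hyaluronan, by 0.19 ± 0.05 (adjusted p = 0.0013; 0.083 without 24h replicate 2). Tpx2 (chr2:152847964-152895321, plus strand), which activates Aurora A on the spindle, had 198 and 202 CPM (0h), 193 and 188 (6h), 203 and 197 (12h), and 185 and 197 (24h). Its 12h libraries overlapped 0h and its 6h and 24h libraries lay below 0h, and it did not pass at 12h (0.00 ± 0.04, adjusted p = 0.97) or 24h (-0.07 ± 0.04, adjusted p = 0.2).

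For cytokinesis, Anln (chr9:22332012-22389188, minus strand), the gene of anillin, the scaffold of the contractile ring, had 99.4 and 96.6 CPM (0h), 117 and 108 (6h), 137 and 132 (12h), and 141 and 140.2 (24h). The libraries of each time point lay above those of the time point before it. Anln rose by 0.20 ± 0.05 at 6h (adjusted p = 0.0031; 0.075 without 0h replicate 2 and 0.089 without 6h replicate 1), 0.45 ± 0.05 at 12h (adjusted p = 6.6e-10) and 0.52 ± 0.05 at 24h (1.43-fold, adjusted p = 1.4e-11). Prc1, which crosslinks the central spindle, rose by 0.29 ± 0.05 at 12h (adjusted p = 4.6e-05) and 0.29 ± 0.05 at 24h (adjusted p = 2.4e-05). Ect2, which activates RhoA at the cleavage plane, had 100 and 97.5 CPM (0h), 97.9 and 90.1 (6h), 105 and 104 (12h), and 93.1 and 101 (24h). Its difference from 0h was 0.08 ± 0.05 at 12h and -0.03 ± 0.05 at 24h, and neither passed (adjusted p = 0.2 and 0.68).

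Genes of mitotic chromosome structure rose in 5 of 6 cases at 12h and at 24h (83.3%, beside 22.1% and 26.1% of all genes). Their summed level went from 2231 and 2155 CPM at 0h to 2651 and 2640 CPM at 12h. Mki67 (chr7:135689784-135716361, minus strand), the gene of the Ki-67 antigen that coats mitotic chromosomes, had 529 and 506 CPM (0h), 622 and 566 (6h), 722 and 703 (12h), and 649 and 692 (24h). All later libraries lay above 0h, at 0.20 ± 0.04 at 6h (adjusted p = 0.0013; 0.065 without 0h replicate 2), 0.46 ± 0.04 at 12h (adjusted p = 1.2e-10) and 0.37 ± 0.04 at 24h (adjusted p = 8.4e-09). Top2a (chr11:98992943-99024189, minus strand), the topoisomerase that untangles sister chromatids, had 731 and 707 CPM (0h), 747 and 721 (6h), 853 and 852 (12h), and 817 and 825 (24h). It rose by 0.25 ± 0.04 at 12h (adjusted p = 4.5e-06) and 0.19 ± 0.04 at 24h (adjusted p = 0.00013), with 6h libraries that overlapped 0h.

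Condensin, the ring that compacts chromosomes, rose in 3 of its 4 listed subunits at 12h and at 24h (beside 22.1% and 26.1% of all genes). The ATPase subunit Smc2 rose by 0.27 ± 0.04 at 12h (adjusted p = 2.5e-06) and 0.22 ± 0.04 at 24h (adjusted p = 3.2e-05). The HEAT-repeat subunits Ncapg and Ncapd2 rose by 0.34 ± 0.05 and 0.23 ± 0.04 at 12h (adjusted p = 1.1e-06 and 1.9e-05), and by 0.28 ± 0.05 and 0.17 ± 0.04 at 24h (adjusted p = 1.4e-05 and 0.00057). With the GC and length correction the 24h call of Ncapd2 was lost (adjusted p = 0.15). Smc4 (chr3:69004738-69034623, plus strand), the partner of Smc2 in the same ring, had 388 and 378 CPM (0h), 398 and 378 (6h), 394 and 396 (12h), and 368 and 382 (24h). Its 12h libraries lay above 0h and the others overlapped 0h, and it did not pass at 12h (0.04 ± 0.04, adjusted p = 0.42) or 24h (-0.03 ± 0.04, adjusted p = 0.56).

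**Figure D4:**
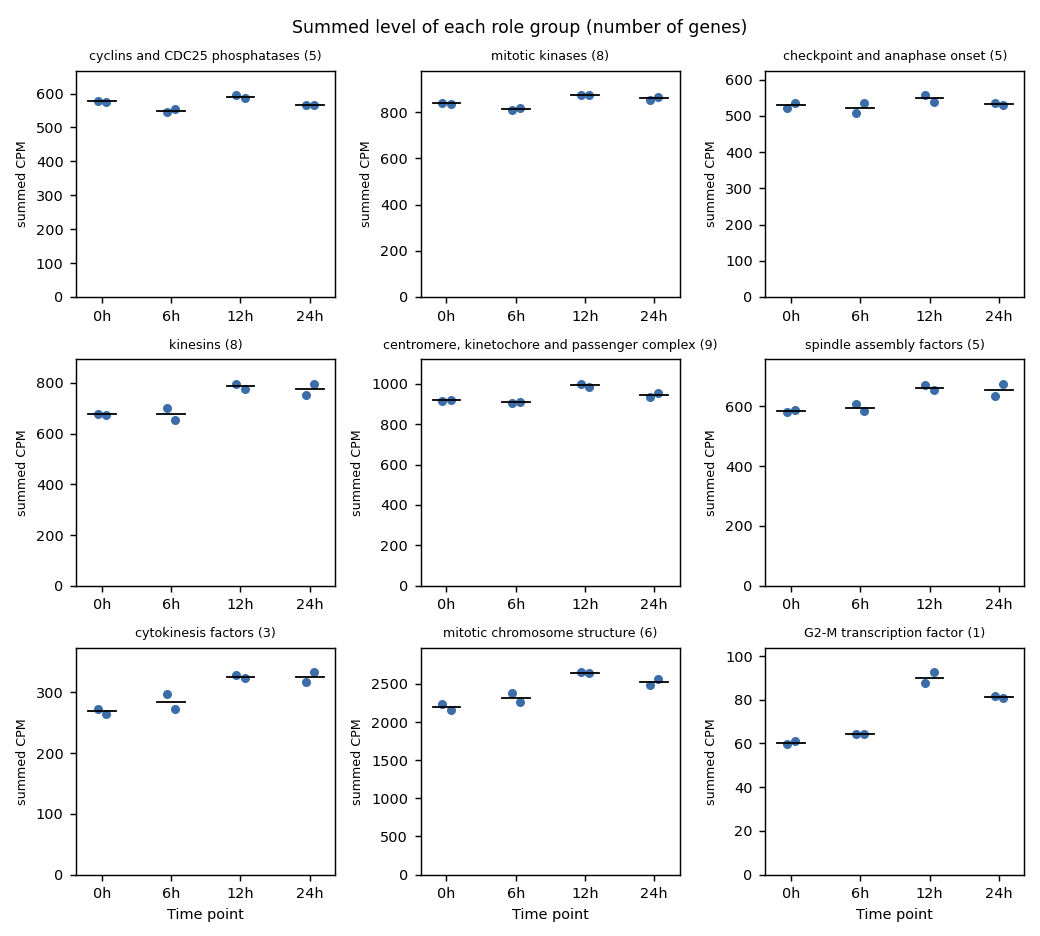
Points are the CPM summed over the genes of a role group in each library, bars are the mean of the 2 libraries of a time point, and each vertical axis starts at 0. Chromosome structure genes go from 2231 and 2155 CPM at 0h to 2651 and 2640 at 12h, while the 8 kinases stay between 809.7 and 875 CPM.

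The rise lay mainly between 6h and 12h. From 6h to 12h 27 of the 50 genes rose (54.0%), where 10.9% of all genes were called higher, and 0 fell, where 9.79% of all were called lower. DESeq2 called 19 higher and 0 lower, and edgeR found 0 lower at an unadjusted p under 0.05. Without 12h replicate 2 the rises numbered 17. This step called 20.7% of all genes. Of the 27, 21 had not been called at 6h against 0h and were not called from 12h to 24h, among them Ccna2, Kif11, Kif15, Kif20b, Kif23, Top2a and Foxm1. Besides those given above, Cenpa, Spc25, Ect2 and Bub1b rose in this step by 0.16 ± 0.05, 0.17 ± 0.06, 0.15 ± 0.05 and 0.13 ± 0.04 (adjusted p = 0.016, 0.025, 0.026 and 0.024), and DESeq2 did not call these 4.

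From 12h to 24h 3 of the 50 genes fell, where 3.04% of all genes were called lower, and 0 rose, where 3.41% of all were called higher (6.46% together). At an unadjusted p under 0.05 edgeR had 1 gene higher and 11 lower, and DESeq2 called 0 higher and 2 lower. The 3 were Nek2, Cdc20 (-0.20 ± 0.05, adjusted p = 0.0061) and Nusap1 (-0.17 ± 0.05, adjusted p = 0.028). This count moved with single libraries, to 0 without 12h replicate 1, 1 without 24h replicate 1, 1 without 24h replicate 2, 7 without 6h replicate 1 and 6 without 6h replicate 2. The highest mean CPM lay at 12h for 25 of the 50 genes, at 0h for 12, at 24h for 11 and at 6h for 2 (Cdk1 and Nek2). This count includes genes not called over the course, and it was not made for all genes. Neither Cdk1 nor Nek2 passed at 6h against 0h (adjusted p = 0.65 and 0.88).

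Levels were compared between genes only after division by exon length, as CPM per kb over all annotated exons, which understates genes with rarely used exons. On this scale Ccnb2 was highest at 0h, then came Top2a with 79.8, Cdc20 with 79.5 and Smc4 with 73.5. The lowest were Kif18a with 1.97, then Cdc25c, Cenpf with 3.57 and Aspm with 3.61. At 24h Top2a stood at 91.1, Ccnb2 at 87.2 and Cdc20 at 62.6 CPM per kb.

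By median, genes that rose had longer exon sequence than genes that fell, with ranges that overlapped. The 23 genes higher at 24h had a median exon length of 7461 bases (2946 to 15433), the 6 lower had 2701 bases (1531 to 4516), and the 21 not called had 4919 bases. The 7 genes higher at 6h had 8620 to 15433 bases. Across the 50 genes Spearman's rho between exon length and the 24h log2 fold change was 0.618. With the GC and length correction it was 0.447. At 6h and 12h the rho was 0.628 and 0.619, and 0.435 and 0.467 with the correction. These points share the same 8 libraries and are not independent, and no test was made. Over all tested genes the rho at 24h was 0.112, and -0.0893 with the correction. Genes in the longest quartile by exon length, above 6268.5 bases, had a median of 0.09 at 24h, where the 18 mitotic genes of that length had 0.29. In the quartile from 3935 bases up to that length the medians were 0.02 for all genes and 0.01 for 22 mitotic genes. The 4 mitotic genes in the shortest quartile had a median of -0.27, and the 6 in the quartile above it 0.05. With the correction, 22 of the 23 rises and 3 of the 6 falls at 24h were called in the same direction, and at 12h 27 of the 27 rises and 1 of the 2 falls. Ccnb2, Pttg1 and Birc5 were the falls not called at 24h.

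**Figure D5:**
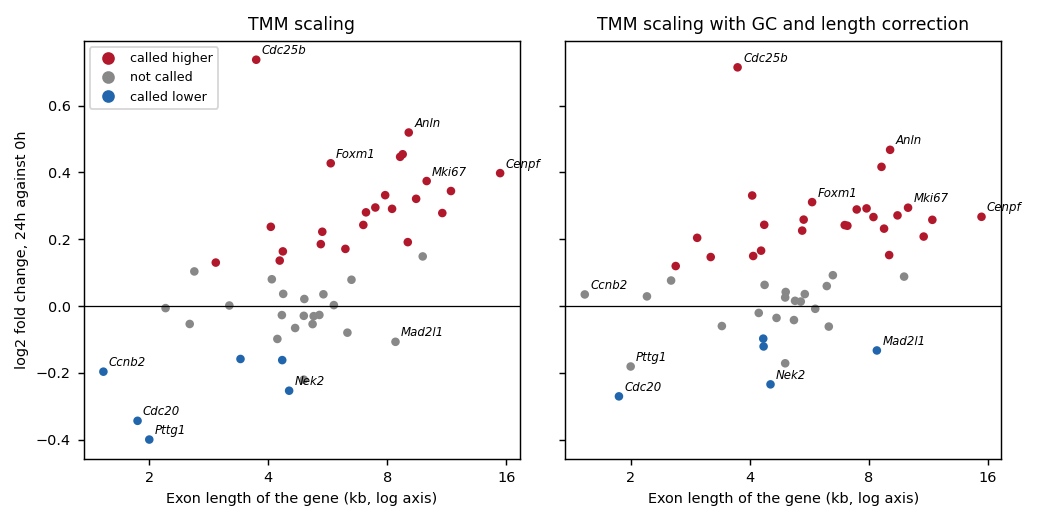
Each point is a mitotic gene, with exon length on a log axis and the log2 fold change at 24h against 0h on the vertical axis, without (left) and with (right) the correction for GC content and length, coloured by call. Long genes such as Anln, Mki67 and Cenpf lie high and short ones such as Cdc20 and Pttg1 low on both sides, while Ccnb2 moves from below to above 0.

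Other genes of mitosis, taken from lists by function, were described in the same fit. The background shares over the whole table, 22.1% up and 21.6% down at 12h and 26.1% up and 24.8% down at 24h, apply here too, and no list was tested against them. Of 36 other kinetochore and checkpoint genes, 12 were higher and 4 lower at 12h (33.3% and 11.1%), and 11 higher and 9 lower at 24h (30.6% higher, with both shares near the background), with medians of 0.08 and 0.02. Kntc1, which recruits the checkpoint as ROD, rose by 0.51 ± 0.05 at 24h (adjusted p = 5.8e-10). Zwint, which links the same complex to the kinetochore, fell by 0.34 ± 0.04 (adjusted p = 2.9e-08). Hjurp, the chaperone of CENP-A, rose by 0.24 ± 0.04 (adjusted p = 9.2e-06) and the scaffold Knl1 by 0.29 ± 0.05 (adjusted p = 1.1e-05).

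Of 38 other spindle, centrosome and cytokinesis genes, 19 were higher and 2 lower at 12h (5.26% lower), and 17 higher and 4 lower at 24h (44.7% and 10.5%), with medians of 0.15 and 0.13. Cit, the gene of citron kinase, rose by 0.48 ± 0.05 at 24h (adjusted p = 3e-10), the scaffold gene Iqgap3 by 0.59 ± 0.07 (adjusted p = 3.1e-09), the centriole gene Cep152 by 0.61 ± 0.07 (adjusted p = 2.6e-09) and Spag5, the gene of astrin, by 0.39 ± 0.05 (adjusted p = 5e-09).

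Of 17 genes of the anaphase-promoting complex and its partners, 2 were higher and 6 lower at 12h (11.8% and 35.3%), and 3 higher and 7 lower at 24h (17.6% and 41.2%). By sign alone, 8 of the 17 were above 0h at 24h and 9 below, with a median of -0.08. Its subunit genes Anapc16, Anapc4 and Cdc26 fell by 0.43 ± 0.06, 0.32 ± 0.05 and 0.28 ± 0.06 at 24h (adjusted p = 5e-07, 7.7e-07 and 0.00029), while Fbxo5, the gene of its inhibitor EMI1, rose by 0.21 ± 0.05 (adjusted p = 0.0011). Of 22 regulators of mitotic entry and exit, 5 were higher and 6 lower at 12h (22.7% and 27.3%, near the background), and 5 higher and 10 lower at 24h (22.7% and 45.5%). Pkmyt1, the kinase that keeps CDK1 inactive, rose from a mean of 27.7 to 43.2 CPM, by 0.64 ± 0.07 at 24h (adjusted p = 6.3e-10), in the same libraries in which Cdc25b, its opponent, rose. Cks1b, which binds CDK1, fell by 0.32 ± 0.05 (adjusted p = 1.3e-06) and the phosphatase gene Ppp1cc by 0.31 ± 0.05 (adjusted p = 1.1e-06), and Cdc14b rose by 0.38 ± 0.07 (adjusted p = 1.6e-05). Among 14 cohesin and other condensin genes 5 were higher at 12h (35.7%) and 4 at 24h (28.6%, near the background), among them the cohesin regulator Pds5a (0.37 ± 0.04, adjusted p = 3.7e-09) and the condensin genes Ncaph (0.22 ± 0.05, adjusted p = 0.00038) and Ncapd3 (0.20 ± 0.05, adjusted p = 0.0011). Nipbl, the cohesin loader, was not called at 24h (-0.10 ± 0.04, adjusted p = 0.065).

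The earlier phase of the cell cycle gave other counts over the same libraries. Of 40 genes of G1, S phase entry and DNA replication, 11 were higher and 7 lower at 12h (27.5% and 17.5%), and 5 higher and 19 lower at 24h (12.5% and 47.5%), where the mitotic genes had 23 and 6. From 12h to 24h 17 of the 40 fell, where 3 of the 50 mitotic genes did. The median of the 40 at 24h was -0.11 and that of the 50 was 0.09. The difference between the lists was not tested. The genes named here had the smallest adjusted p over the time course, and none of them is among the 19 that were lower at 24h. E2f2, a transcription factor of S phase genes, was among the 5 higher. It had 56.5 and 51.9 CPM (0h), 119 and 123 (6h), 156 and 162 (12h), and 141 and 134 (24h), a rise of 1.35 ± 0.05 at 24h (adjusted p = 1.7e-22). Cdt1 and Cdc45, which license and start replication, were also among the 5 higher, by 0.32 ± 0.05 and 0.22 ± 0.04 (adjusted p = 4.6e-07 and 3.9e-05). Uhrf1 stood at -0.08 ± 0.04 (adjusted p = 0.1). Of 13 CDK inhibitor, pocket protein and E2F repressor genes, 6 were higher and 3 lower at 24h (46.2% and 23.1%). Rb1, the retinoblastoma gene, rose by 0.48 ± 0.06 (adjusted p = 2.6e-08), Cdkn2d, the gene of the CDK4 inhibitor p19, by 0.47 ± 0.07 (adjusted p = 2.4e-07) and E2f8 by 0.26 ± 0.05 (adjusted p = 5.5e-05), and E2f4 fell by 0.20 ± 0.05 (adjusted p = 0.00048).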

How the data were processed

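RNA of 8 libraries (4 time points of 2) was measured by sequencing after a TruSeq PE preparation, per the labels' protocols. The authors deposited raw counts per Ensembl gene, 1 file per library, and the submitters' processing notes list HTSeq 2.0.3, SAMtools 1.3, STAR and mm10. Which annotation, strand setting and filters they used is not given in the sources used here. Beside 47069 genes, every file has summary entries for fragments without a gene; neither library sizes nor tests include them. Fragments with no gene feature made up 5.25% to 9.27% of a library and ambiguous ones 5.00% to 5.50%. Totals of 20394546 to 26041347 gene counts let 0 counts stand for up to 0.115 to 0.147 CPM (3 counts), as far as counting error goes. Between replicates the chi-square per degree of freedom was 1.83 to 3.89, above sampling noise, and no replicate pair was identical.

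Names, exon lengths and coordinates came from GENCODE M21 (46574 identifiers matched; the 495 others held at most 0.0254% of counts), and promoters from RefSeq. edgeR 4.0.16 in R 4.3.3 kept 14263 genes (filterByExpr), scaled by TMM and fitted all 8 libraries with a mean per time point (4 residual degrees of freedom) by quasi-likelihood. Adjusted p is Benjamini-Hochberg over all genes, two-sided, threshold 0.05. The mitotic genes, their role groups and the other lists were chosen with earlier results of these data known. The genes given library by library were 15 set by name and the highest and lowest of each role group at 12h and 24h. Up to 4 genes per other list, those with the smallest adjusted p over the time course, were named. Bub1b, Ttk and the other members were given by fold change. Cells of other types were judged from marker lists, whose sums are in the report for progenitor, T and NK cell and late neutrophil genes. Some single markers are not reported here. The erythroid list summed to 423 CPM at 0h and 264 CPM at 24h (Tfrc alone gave 420 and 261), the B cell list to 11.9 and 8.84, the megakaryocyte list to 14.2 and 10.2, and the stroma and endothelium list to 185 and 142 (Pecam1 alone gave 185 and 142). The alternatives were DESeq2 1.42.0, DESeq2 size factors, library totals, upper quartile scaling, no filter and a stricter filter, a replicate block, fits of only the 4 libraries compared, a 1.5-fold threshold, 2 forms of GC and length correction, thinning, and leaving out each library.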

Additional observations from a re-analysis of the deposited data

How the results depend on the processing

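The numbers of mitotic genes called at 12h against 0h (29 in both directions), at 24h against 0h (29) and over the whole course (35) stayed within 1.5 times under every setting that tests against no change and keeps all libraries. Tested against a fold of 1.5, the numbers called were 0 at 6h, 12h, 24h, from 6h to 12h and from 12h to 24h. DESeq2 called 5 genes at 6h where edgeR called 10. From 12h to 24h, where edgeR called 3, the number was 5 with no filter on low counts, 5 with the GC and length correction, 8 when that correction centred the mean gene, and 7 in a fit of the 4 libraries alone. Leaving out each library in turn gave 2 to 14 genes at 6h, 21 to 29 at 12h, 25 to 33 at 24h, 17 to 27 from 6h to 12h, 0 to 7 from 12h to 24h, and 30 to 36 over the course. The time point left with 1 library was assumed to vary like the others. Ccnb2 reversed with the GC and length correction, to 0.118 at 12h and 0.0346 at 24h. The samples share only a replicate number, and same-numbered libraries did not deviate together (correlations of -0.0171 to 0.0211). With the replicate as a block, 10, 29 and 30 genes were called at 6h, 12h and 24h, 26 from 6h to 12h, 3 from 12h to 24h and 32 over the course. Library totals alone moved the median of all genes at 24h to 0.08, and called 26 mitotic genes higher and 4 lower. Thinned to the depth of the smallest library, the counts called at 6h, 12h and 24h were 10, 27 and 30.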
